A study of Rattus norvegicus with 48 samples.

Results

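The genes described here encode subunits of voltage-gated, calcium-activated, inwardly rectifying and two-pore potassium channels, of voltage-gated calcium channels, and of the hyperpolarization-activated HCN channels. They were taken as every probe set whose platform gene symbol begins with Kcn, Cacn or Hcn followed by a subunit letter or number. This gave 167 probe sets for 102 genes (75 Kcn, 24 Cacn and 3 Hcn) of the 14217 genes that the platform annotation names with a single symbol. In each tissue the probe set with the highest mean over that tissue's 24 arrays stood for its gene, and it was the same probe set in cortex and liver for 82 of the 102 genes.

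Potassium channels bring a neuron back to rest after an action potential and set its firing rate, calcium channels trigger transmitter release and calcium signalling, and HCN channels carry a depolarizing current that opens on hyperpolarization. Pore-forming subunits work with auxiliary partners: Kcnab and Kcnip proteins bind Kv1 and Kv4 channels, Cacnb and Cacna2d proteins carry calcium channels to the membrane, and several Cacng proteins act mainly on AMPA-type glutamate receptors. RDX, the compound given, is a nitramine explosive known as a convulsant that blocks GABA-A receptors. Liver parenchyma is not electrically excitable but holds some potassium channels that set membrane potential and cell volume.

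Male Sprague-Dawley rats received a single oral dose of RDX in a gel capsule, 18 or 3 mg/kg, doses intended to stay below those causing seizures. Brain cortex and liver were taken at 0, 4, 24 and 48 h, with 3 arrays for each of the 16 combinations of tissue, dose and time. No vehicle arm is labelled at 4, 24 or 48 h, so each later group was set against the 0 h group of its own dose, and the 3 time contrasts of a dose share their 0 h arrays. Nothing in the labels ties an array to an animal, so the 3 arrays of a group may be technical repeats and p-values describe the spread between arrays alone. All values are log2 signals, and because probes differ in brightness a level places a probe set among the array's signals and does not rank genes by transcript number.

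Tissue identity was checked with Snap25, a synaptic vesicle release gene, which averaged 13.25 in cortex and 5.33 in liver. The cortex arrays also held striatal transcripts, with Penk, a neuropeptide precursor of striatal neurons, at 12.48 and Drd1, a dopamine receptor, at 9.18. RNA integrity was read from the actin 3′ minus 5′ gap, which grows as RNA degrades. It exceeded 3 in 10 of the 24 cortex arrays, and averaged 3.66, 3.30 and 3.98 at 4, 24 and 48 h after 18 mg/kg, against 2.09, 2.09 and 2.34 after 3 mg/kg. At 0 h it averaged 2.65 in the 18 mg/kg arm and 2.89 in the 3 mg/kg arm. Averaged over 8 hepatocyte genes, the signal was above 8 on 4 of the cortex arrays: replicate 2 at 4 h and replicates 2 and 3 at 48 h after 18 mg/kg, and replicate 1 at 4 h after 3 mg/kg. The cortex arrays labelled 18 mg/kg 24 h replicate 1 and 3 mg/kg 48 h replicate 1 were nearly the same: their log2 values differed with an SD of 0.110 and correlated at 0.99873, while the next closest of the 276 cortex pairs had an SD of 0.195. In liver, 18 mg/kg 4 h replicate 1 and 3 mg/kg 0 h replicate 2 had compressed values, with a narrow spread of log2 signals (SD 1.389 and 1.499). The dose differences in cortex are given with and without these arrays. The exception is 48 h without those high in hepatocyte transcripts, which leaves only replicate 1 after 18 mg/kg. In bulk tissue, fewer cells of a type and less RNA per cell cannot be told apart.

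Promoter sequences were set beside the tissue comparison, the one in which the members differed most. RefSeq promoters (rat build GRCr8) were found for 69 of the 102 genes, and the 250 bases before each gene's start were searched on both strands. The GC box letters GGGCGG were found in 58% of the 69 member promoters, against 30.5% of all 33469 promoters. They were found in 60% of the 40 members higher in cortex and in 46.2% of the 13 members lower in cortex. The letters TATAAA were found in 4.35% of members and in 12.9% of all promoters. The cAMP response element TGACGTCA was found in 0 of 69 members and in 1.59% of all promoters, and the E box CACGTG in 2.9% and 5.59%. TCAGCACC, from the left part of the RE1 element, was found in 3 of the 69 members (4.35%) and in 1.25% of all promoters. Median GC content was 64.8% in members and 51.2% over all promoters, and it was 66.6% among members higher in cortex and 51.6% among members lower in cortex.

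The promoters of Kcnq5, Kcnc2 and Kcnc1, which had the widest cortex-over-liver differences, and of Kcnk5, which was among the members lowest in cortex relative to liver, follow with GC boxes of either strand in capitals. They lie at chr9:31891282-31891531 on the minus strand (Kcnq5), chr7:49587407-49587656 on the plus strand (Kcnc2), chr1:106038997-106039246 on the plus strand (Kcnc1) and chr15:4171375-4171624 on the plus strand (Kcnk5).
Kcnq5: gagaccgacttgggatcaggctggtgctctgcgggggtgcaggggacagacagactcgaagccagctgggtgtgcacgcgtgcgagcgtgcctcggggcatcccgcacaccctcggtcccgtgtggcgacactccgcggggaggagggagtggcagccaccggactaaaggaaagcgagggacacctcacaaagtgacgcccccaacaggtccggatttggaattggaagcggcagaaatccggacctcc
Kcnc2: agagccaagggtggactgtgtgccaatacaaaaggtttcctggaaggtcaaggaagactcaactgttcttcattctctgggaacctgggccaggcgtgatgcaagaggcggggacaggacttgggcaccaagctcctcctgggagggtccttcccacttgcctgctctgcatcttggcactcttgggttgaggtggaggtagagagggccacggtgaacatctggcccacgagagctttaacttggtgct
Kcnc1: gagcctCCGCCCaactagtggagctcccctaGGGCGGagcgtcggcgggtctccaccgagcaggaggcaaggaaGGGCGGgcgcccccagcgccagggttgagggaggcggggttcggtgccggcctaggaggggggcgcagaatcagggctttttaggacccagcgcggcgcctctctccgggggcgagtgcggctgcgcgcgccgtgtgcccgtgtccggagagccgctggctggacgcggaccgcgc
Kcnk5: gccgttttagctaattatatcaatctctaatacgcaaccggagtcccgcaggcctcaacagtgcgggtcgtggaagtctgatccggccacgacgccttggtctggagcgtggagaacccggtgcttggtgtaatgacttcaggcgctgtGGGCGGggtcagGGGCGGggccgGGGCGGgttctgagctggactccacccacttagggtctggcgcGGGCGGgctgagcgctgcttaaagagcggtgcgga
Kcnc1 held 3 GC boxes and Kcnk5 held 4, while none of the searched letters was found in these windows of Kcnq5 and Kcnc2. GC content was 65.2% for Kcnq5, 56.4% for Kcnc2, 74.4% for Kcnc1 and 62.8% for Kcnk5.

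At 0 h, 74 of the 102 channel genes (72.5%) differed between cortex and liver, where 77.9% of all genes did. Of these, 54 were higher and 20 were lower in cortex (limma, adjusted p under 0.05, 6 against 6 arrays), and over all genes 37.4% were higher and 40.6% lower. Without the compressed liver array at 0 h, 75 members differed in place of 74. Each gene was represented here by its brightest cortex probe set, a choice that favours higher values in cortex. Over all 167 member probe sets, 75 were higher and 44 lower in cortex, where 77.4% of all probe sets were called in either direction. The median member difference was 0.66, against -0.09 over all genes. The widest differences were those of voltage-gated potassium channels. Kcnq5, a subunit of the M-current, averaged 10.48 ± 0.236 in cortex and 4.39 ± 0.24 in liver (SD, n = 6 each), 67.9-fold higher in cortex (log2 6.09, SE 0.15, limma adjusted p = 1.72e-30). Kcnc2 and Kcnc1, fast-deactivating Kv3 channels of fast-spiking neurons, were 62.9-fold and 59.8-fold higher in cortex. Kcnv1, a silent subunit that alters Kv2 channels, was 56.6-fold higher.

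Whole families stood above liver. All 3 Kcnab genes, all 3 Kcnc, all 3 Kcnd, all 4 Kcnip, both Cacna2d and all 4 Cacnb genes were higher in cortex. Among the auxiliary genes, Kcnip4 had a log2 difference of 5.29 and Kcnab1 of 5.26. Cacna2d3 and Cacna2d1, α2δ subunits that include the gabapentin-binding type, had log2 differences of 5.23 and 4.75. Kcnj6, the GIRK2 subunit that answers G-protein-coupled receptors, averaged 9.46 ± 0.147 in cortex and 4.16 ± 0.25 in liver. Kcnma1, the pore of the BK channel, had a log2 difference of 5.15, and its neuronal partner Kcnmb4 of 4.54. Among calcium pores, Cacna1b, the N-type channel of nerve terminals, had the widest difference (log2 5.07, SE 0.14), while Cacna1c, Cacna1h, Cacna1a, Cacna1d and Cacna1g had differences between 0.97 and 2.52. Cacna1e and Cacna1i were lower in cortex, at -0.31 and -0.53.

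Other families were split. Of the 8 Cacng genes, Cacng2 (stargazin) and Cacng3 were higher in cortex, at 3.71 and 3.58, Cacng5 was lower at -0.72, and the other 5 did not pass. Hcn2 was 0.44 higher in cortex, Hcn4 was lower at -0.42, and Hcn3 at 0.02 did not pass. Of the 15 Kcnj genes 5 were higher and 4 lower, and Kcnj10, the Kir4.1 channel of astrocytes, averaged 4.62 ± 0.143 in cortex and 4.75 ± 0.496 in liver. That difference of -0.13 did not pass (limma adjusted p = 0.491), and the probe set lay between 4.35 and 4.80 on every cortex array, although the channel is known to be abundant in brain astrocytes.

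The members lower in cortex had smaller differences. Kcnv2, a silent subunit best known from photoreceptors, averaged 4.91 ± 0.0185 in cortex and 6.25 ± 0.495 in liver, 2.54-fold lower in cortex (log2 -1.34, SE 0.15, limma adjusted p = 2.33e-10). Kcnk5, the acid-sensitive TASK2 channel of epithelia, had a log2 difference of -1.12. Kcnj5, the GIRK4 subunit, was at -1.08, Kcnj15 at -0.87 and Kcnq1, the epithelial and cardiac KCNQ subunit, at -0.72. All of these genes were dim in cortex, below the median cortex level of 6.243. Over all 4552 genes below that level the median difference was -0.60, and 618 of them were above 0. The 50 members below it had a median of -0.25. The 6 cortex arrays and the 6 liver arrays did not overlap for 48 members higher in cortex and for 12 lower, and the background over all genes was 28.8% and 27.6%.

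**Figure D1:**
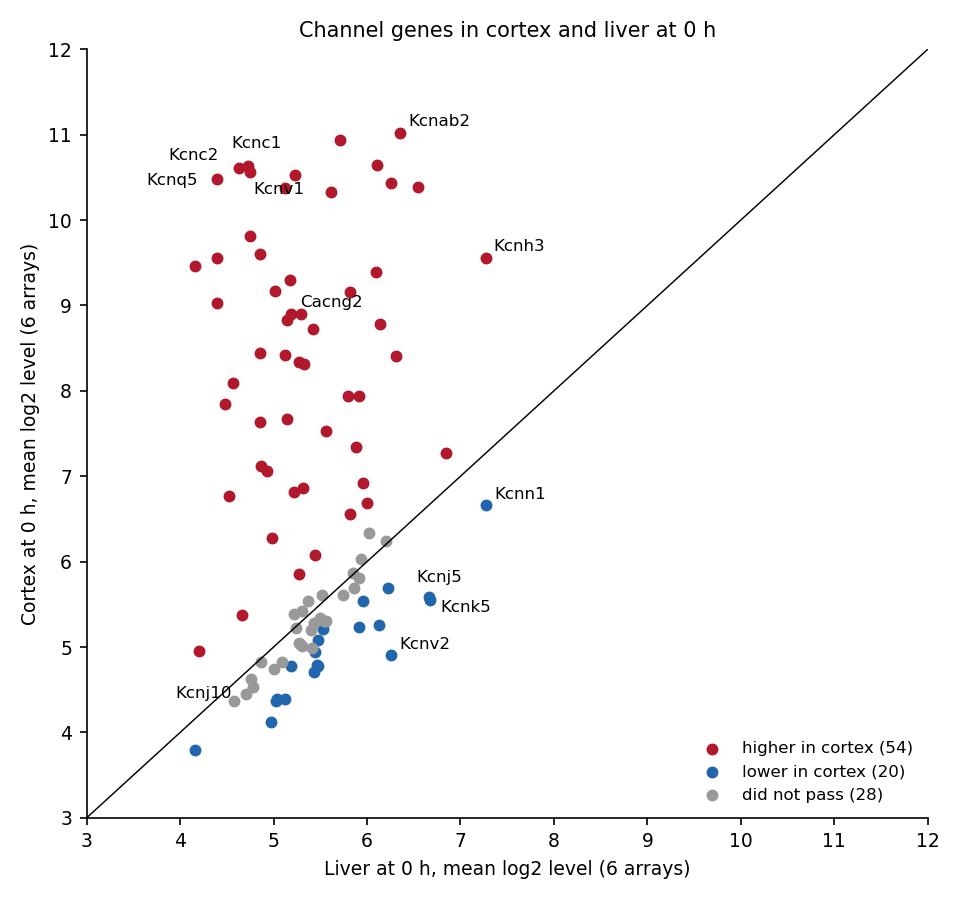
Mean log2 signal of each of the 102 channel genes in the cortex at 0 h (vertical axis) against the liver at 0 h (horizontal axis), 6 arrays each, with the diagonal marking equal signal. The 54 members higher in cortex form the arm above the diagonal up to Kcnq5 and Kcnc2, and the 20 lower members stay close below it.

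Probe sets of the same gene did not always give the same tissue difference. Of the 40 members with at least 2 probe sets, 13 (32.5%) had probe sets called higher and lower in cortex, against 23.6% of the 4525 genes with several probe sets. For Kcnq5, probe set 1379510_at differed by 6.09 while 1391314_at and 1379212_at differed by -0.59 and -0.65. For Kcnc2, 1370439_a_at differed by 5.97 and 1371200_at by -0.68. For Cacng2, 1368759_at differed by 3.71 and 1375735_at by -0.41. A gene's direction here is thus that of its brightest cortical probe set. The same split held for Cacna1a, Cacna1c, Cacna1d, Kcna2, Kcna6, Kcnc4, Kcnma1, Kcnip1, Kcnj16 and Kcne2.

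Over the 8 cortex groups, 52 of the 102 members lay above 6.243, the median over all probe sets, and 31 lay above the 75th percentile of 8.257. With the brightest probe set standing for each gene, 9665 of all 14217 genes lay at or above 6.243. The brightest members were Kcnab2, an auxiliary β subunit of Kv1 channels, at 10.92 ± 0.282 (SD, n = 24), Cacna2d3 at 10.89 ± 0.114 and Kcnc2 at 10.65 ± 0.128. In the other families the brightest member was Kcnmb4 at 10.60, Kcnip4 at 10.50, Kcnq5 at 10.42, Kcnv1 at 10.41, Kcna2 (the axonal Kv1.2 channel) at 10.36, Cacna1b at 9.81, Kcnh3 (an ether-à-go-go-like channel of the forebrain) at 9.47, Kcnj6 at 9.43, Kcnk2 (the mechanosensitive TREK1 leak channel) at 9.14, Kcnd2 (the main dendritic A-type channel) at 8.95, Cacng2 at 8.61, Cacnb3 at 8.54, Kcnt1 (a sodium-activated channel) at 7.69, Hcn2 at 7.23, Kcnn1 (an SK channel) at 6.57, Kcne4 at 6.38 and Kcnb2 at 5.06. Kcnj1, the kidney channel ROMK, was the lowest member at 3.80 ± 0.0832. Kcnh5, Kcnn4 and Kcna3, each the lowest of its family, averaged 4.14 ± 0.067, 4.31 ± 0.128 and 4.52 ± 0.117.

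Members differed in how much they varied across arrays. Kcnc2 stayed between 10.41 and 10.94 on all 24 cortex arrays. Kcna1, the Kv1.1 channel of axons, spanned 7.96 to 10.47 (SD 0.732), Cacng3 spanned 5.65 to 9.56 (SD 0.891), and Cacna1h, a T-type calcium channel, spanned 5.67 to 7.64 (SD 0.628). The median residual SD within groups was 0.174 for members, against 0.165 over all genes.

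The time contrasts asked whether channel transcripts moved after a dose. No member passed in any of the 6 cortex contrasts with 0 h or with the later times of both doses pooled (limma, adjusted over all probe sets), and over all 167 member probe sets the count was also 0. No member passed in these contrasts without both near-identical arrays or with the actin gap as a covariate. None passed without the arrays high in hepatocyte transcripts either, leaving aside 48 h after 18 mg/kg, where only replicate 1 stayed. The background of all genes called was 0%, 0.0985% and 0% at 4, 24 and 48 h after 3 mg/kg, 0% at each time after 18 mg/kg, and 0.00703% with the times pooled. With the times pooled, 14 members had an unadjusted p under 0.05, where the background was 6.41%. At an unadjusted p under 0.05, 14, 17 and 11 members were counted at 4, 24 and 48 h after 3 mg/kg, where the background was 10.9%, 17.6% and 15.1%. After 18 mg/kg the counts were 11, 11 and 23, where the background was 11.9%, 6.33% and 18.4%.

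The members with the smallest p differed from contrast to contrast, and none of the values that follow passed. After 3 mg/kg, Kcng3, a silent Kv2 partner, had a log2 difference of 0.57 at 4 h (limma adjusted p = 0.343). Kcns1, another silent Kv2 partner, had 7.05, 7.14 and 7.54 at 24 h, against 8.24, 8.36 and 7.89 at 0 h, a difference of -0.92 (limma adjusted p = 0.127). The Kcns1 arrays at 24 h all lay below the 0 h arrays, which held for 15 members in all, while 11 members lay above without overlap. The share of all genes without overlap is not given here, nor for the later contrasts of 3 against 3 arrays. Kcnq5 had differences of -0.39 at 24 h and -0.37 at 48 h (limma adjusted p = 0.137 and 0.283). Kcnq5 passed at 24 h once replicate 3 of the 0 h group was left out (log2 -0.51, limma adjusted p = 0.0474), where 0.513% of all genes were called. That array had a mean striatal signal of 7.69, against 8.89 to 10.15 on the other cortex arrays, and its part in the difference was not tested. After 18 mg/kg, Kcnd3, an A-type channel, had 0.43 at 4 h (limma adjusted p = 0.451) and Cacng2 had -0.90 at 24 h (limma adjusted p = 0.821).

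At 48 h after 18 mg/kg the smallest adjusted p-values of any cortical time contrast were found. Kcnh3 had 9.14, 9.12 and 8.84 at 48 h, against 9.74, 9.65 and 9.62 at 0 h (log2 -0.64, SE 0.12, limma adjusted p = 0.062). Kcnk12, a two-pore channel of the THIK family, had 5.96, 6.38 and 5.79 at 48 h, against 7.22, 7.17 and 6.68 at 0 h (log2 -0.98, SE 0.19, limma adjusted p = 0.062). Cacng2 differed by -1.21 (limma adjusted p = 0.0952). For both Kcnh3 and Kcnk12 every 48 h array lay below every 0 h array, and at 24 h the Kcnh3 values of 9.56, 9.22 and 9.33 also lay below those at 0 h. In all, 13 members lay lower at 48 h without overlap and 7 higher. This contrast turned on single arrays: 10 members passed without 18 mg/kg 48 h replicate 2, where 6.1% of all genes were called. Without 18 mg/kg 0 h replicate 3, 5 members passed (Cacng2, Kcnab3, Kcnh3, Kcnk1 and Kcnk12), where 2.4% of all genes were called. Without 18 mg/kg 48 h replicate 1, 4 passed (Cacng2, Kcnh3, Kcnk12 and Kcnma1), where 1.89% were. Replicates 2 and 3 at 48 h had hepatocyte means of 10.4 and 10.9, and replicates 1, 2 and 3 had actin gaps of 4.61, 2.95 and 4.39. With the gap as a covariate, 0% of all genes were called. Leaving out the arrays high in hepatocyte transcripts keeps only replicate 1 at 48 h, so no count is given for that setting.

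The 18 mg/kg and 3 mg/kg arms were compared directly at each time, in contrasts that share no arrays. At 0 h no member differed (limma, smallest adjusted p = 0.989, 5 members at an unadjusted p under 0.05, background 0% called and 5.09% at the unadjusted p). At 4 h, 3 members were lower after 18 mg/kg, where 1.1% of all genes were lower and 2.67% were called in either direction. At 24 h none passed (limma, Cacna1c log2 0.36 with adjusted p = 0.367, 10 members at an unadjusted p under 0.05, background 0% and 14.7%). At 48 h another 3 members were lower after 18 mg/kg, where 1.46% of all genes were lower and 1.88% were called in either direction. At an unadjusted p under 0.05 there were 23 members at 4 h and 25 at 48 h, against a background of 24.8% and 25%. The members' share was thus close to the background at either time.

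At 4 h the lower members were Kcnj3, the GIRK1 subunit that pairs with Kcnj6, Kcng3, and Cacng8, an AMPA-receptor partner (TARP γ-8). Kcnj3 had 5.36, 5.47 and 5.29 after 18 mg/kg, against 6.10, 6.27 and 6.24 after 3 mg/kg (1.78-fold lower, log2 -0.83, SE 0.17, limma adjusted p = 0.0438). Kcng3 had 4.85, 5.04 and 5.15, against 5.60, 5.58 and 6.14 (1.69-fold lower, log2 -0.76, SE 0.18, limma adjusted p = 0.0438). Cacng8 had 5.01, 4.80 and 5.03, against 5.48, 5.68 and 6.19 (1.79-fold lower, log2 -0.84, SE 0.23, limma adjusted p = 0.0494). The arms did not overlap for any of the 3 genes. Lack of overlap was common, with 18 members lower and 21 higher after 18 mg/kg, most of which did not pass. These probe sets were dim, with cortex means of 5.68, 5.28 and 5.34 below the array median, and at 0 h their cortex minus liver differences of -0.17, -0.26 and -0.15 did not pass.

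At 48 h the lower members were Kcnk12, Kcnh3 and Kcnab3, an auxiliary β subunit of Kv1 channels. Kcnk12 had 5.96, 6.38 and 5.79 after 18 mg/kg, against 6.96, 7.38 and 7.04 after 3 mg/kg (2.12-fold lower, log2 -1.08, SE 0.19, limma adjusted p = 0.0335). Kcnh3 had 9.14, 9.12 and 8.84, against 9.52, 9.74 and 9.78 (1.57-fold lower, log2 -0.65, SE 0.12, limma adjusted p = 0.0391). Kcnab3 had 5.50, 5.69 and 5.06, against 6.23, 6.77 and 6.26 (2.01-fold lower, log2 -1.01, SE 0.23, limma adjusted p = 0.0455). Again the arms did not overlap, as was so for 21 lower and 13 higher members in all. Kcnh3 was the brightest of the 6 genes in cortex, at 9.47, and had the smallest SD of them over the 24 arrays, 0.24.

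RNA integrity differed between these arms in the same contrasts. All 3 arrays at 4 h after 18 mg/kg had actin gaps over 3 and none of those after 3 mg/kg did, and at 48 h 2 of 3 did against none. The gaps of the arms did not overlap at 4 h, nor at 48 h (4.61, 2.95 and 4.39 after 18 mg/kg, against 2.11, 2.19 and 2.73 after 3 mg/kg), so dose and RNA integrity cannot be told apart at either time. With the gap as a covariate none of the 6 members passed and 0% of all genes were called: limma adjusted p was 0.733, 0.808 and 0.876 for Kcnj3, Kcng3 and Cacng8 at 4 h, and 0.713, 0.742 and 0.742 for Kcnk12, Kcnh3 and Kcnab3 at 48 h. The log2 differences in that fit were -0.43, -0.37 and -0.42 at 4 h and -0.61, -0.48 and -0.54 at 48 h. Without the 4 arrays high in hepatocyte transcripts, 2 arrays of each arm were left at 4 h. None of the 3 members passed there (limma adjusted p = 0.12, 0.12 and 0.128), where 0.00703% of all genes were called. At 48 h that setting leaves only replicate 1 after 18 mg/kg, so no test is given. No member passed at 4 h once any single array of either arm was left out. At 48 h none passed without any single 3 mg/kg array or without 18 mg/kg replicate 3, and 17 passed without 18 mg/kg replicate 2, where 13.6% of all genes were called. Without 18 mg/kg replicate 1, 3 passed at 48 h (Kcnk12, Kcnh3 and Cacng2), where 2.34% of all genes were called.

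Without both near-identical arrays, 9 members passed at 4 h, where 4.46% of all genes were called. Besides Kcnj3, Kcng3 and Cacng8, these were Cacna1h (-1.30), Cacng2 (-0.93), Cacnb3 (-0.80) and Hcn2 (-0.74), lower after 18 mg/kg, and Kcna5 (0.92) and Kcnk6 (0.45), higher. Without 18 mg/kg 24 h replicate 1 alone, 6 passed at 24 h, where 6.17% of all genes were called. That array had an actin gap of 2.08, while the other 18 mg/kg arrays at 24 h had 4.18 and 3.64, against 2.02 to 2.18 after 3 mg/kg. The part of the gap in these differences was not tested. At 24 h, 5 passed without both, where 4.11% of all genes were called: Cacna1c, Kcnk6 and Kcnj11, the pore of the ATP-sensitive channel, were higher at 0.44, 0.60 and 0.77, and Cacnb3 at -0.95 and Hcn2 were lower. At 48 h Kcnk12 and Kcnh3 still passed (limma adjusted p = 0.0343 each) and Kcnab3 did not (limma adjusted p = 0.0551), where 0.661% of all genes were called.

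**Figure D2:**
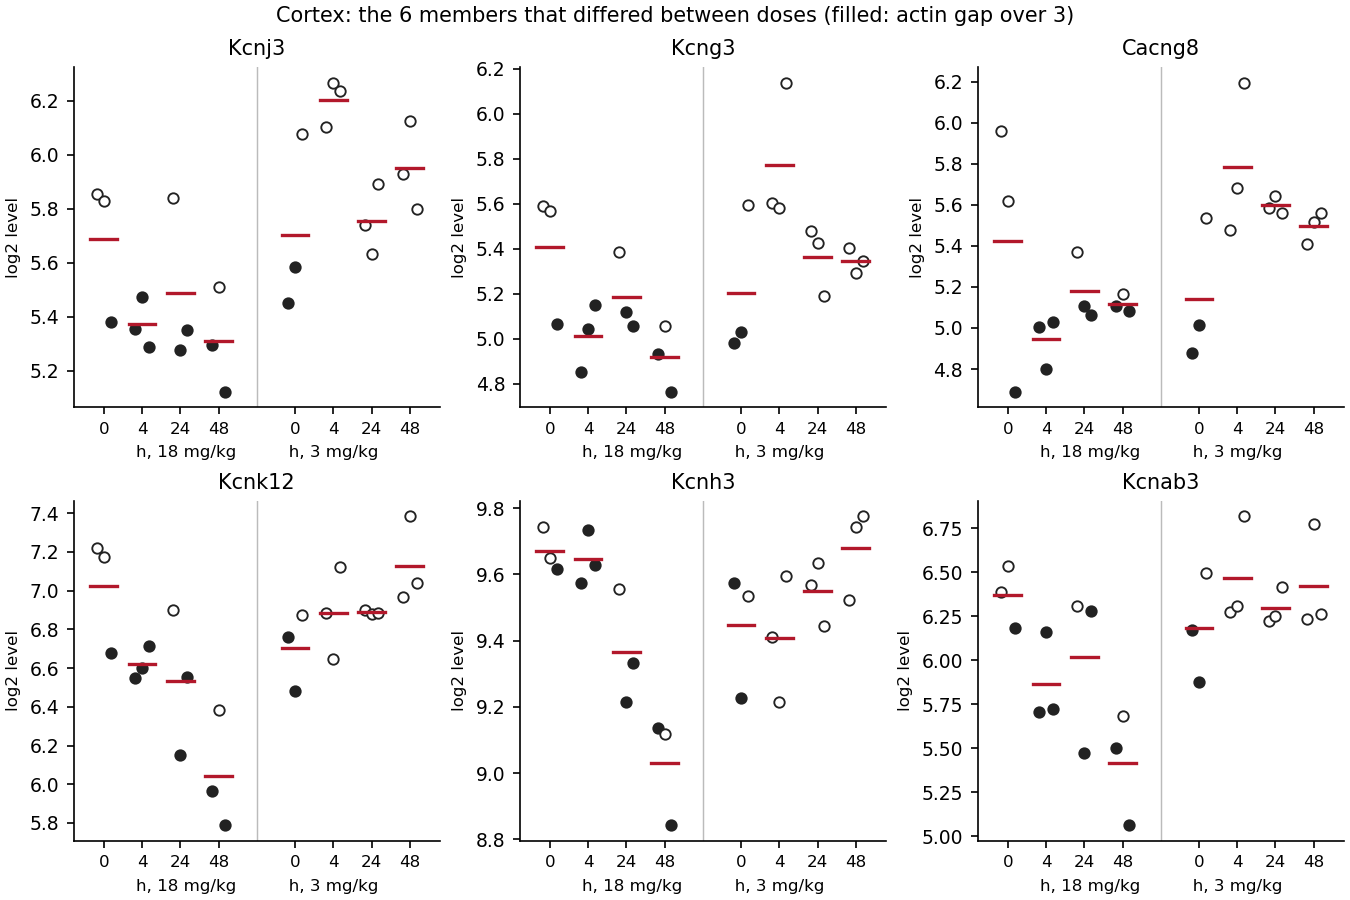
Log2 signal on each cortex array of the 6 members that differed between the dose arms (Kcnj3, Kcng3, Cacng8, Kcnk12, Kcnh3 and Kcnab3), by time, with 18 mg/kg left of 3 mg/kg and red lines for group means. Filled points are arrays with an actin gap over 3, and they make up all 3 arrays at 4 h after 18 mg/kg and 2 of 3 at 48 h.

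Whether the time course itself differed between the doses was tested with a moderated F test, which called 0 of the 102 members (limma, 21 at an unadjusted p under 0.05, background 0.00703% and 18.2%). Kcnh3 had the smallest adjusted p, 0.13. It was the only member to pass without both near-identical arrays (limma adjusted p = 0.0343), and the share of all genes called in that setting is not given here. When single arrays were left out, between 0 and 3 members passed. Where any passed, Kcnh3 was among them, and Kcnk12, Kcnd3, Cacng8 and Kcnq5 passed in some. In those settings 0.886% to 2.88% of all genes were called.

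Other probe sets of the same genes did not always show the dose difference. Over all 167 member probe sets, 9 were lower after 18 mg/kg at 4 h (background 3.7% in either direction) and 5 at 48 h (background 1.32%). A second Kcnip2 probe set, 1370773_a_at, differed by -1.41 at 4 h while the brightest Kcnip2 probe set differed by 0.01. Kcnip2 binds Kv4 channels. For Kcnj4, an inward rectifier, 1369487_a_at differed by -1.06 and the brightest by 0.07. For Kcnj11, 1369782_a_at differed by -0.59 and the brightest by 0.47, which did not pass. The other Kcnj3 probe sets differed by 0.01 and -0.16.

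The actin gap was then set against the members among arrays of the same group. Of the 102 members, 30 had a slope past the threshold (limma, a mean per group plus the gap), 16 higher and 14 lower as the gap grew, where 25.5% of all genes had one, 12.8% higher and 12.7% lower. Kcna1 had the steepest positive slope, 0.80 log2 units per unit of gap (SE 0.12), and Cacng3 the steepest negative slope, -0.79. Positive slopes were found for 4 of the 6 Kcna genes (Kcna1, Kcna5 at 0.46, Kcna2 at 0.32 and Kcna6 at 0.19) and for 4 of the 15 Kcnj genes, among them Kcnj11 at 0.26 and Kcnj6 at 0.19. None of the 6 had a negative slope past the threshold in its brightest probe set. Of the 24 calcium channel genes 13 had slopes above 0, none of them past the threshold for the brightest probe set. Negative slopes past it were found for 6: Cacng3, Cacna1h (-0.42), Cacnb3 (-0.35), Cacng8 (-0.27), Cacnb1 (-0.22) and Cacna1d (-0.21). Without both near-identical arrays Cacna1h, Cacnb1 and Kcna6 did not pass (limma adjusted p = 0.164, 0.0503 and 0.0562).

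Other negative slopes included Kcnk1 at -0.43 (SE 0.061), Hcn2 at -0.36, Kcnk12 and Kcnab3 at -0.29, Kcnj3 and Kcng3 at -0.25, and Kcnh2, the hERG channel, at -0.24. Of the 6 members that differed between the dose arms, 5 had a negative slope past the threshold, where 12.7% of all genes had one. The share among all genes that differed between the arms is not given here. Kcnh3 had a slope of -0.10 that did not pass (limma adjusted p = 0.118). The part of the gap in the dose differences was not tested. The brightest probe sets of Kcnc1, Kcnc2 and Kcnc4, of the 4 Kcnip genes and of both Cacna2d genes had no slope past the threshold. Dimmer probe sets did: Kcnc2 1370558_a_at had -0.73, Kcnip4 1370595_a_at -0.68, Kcnip2 1370773_a_at -0.52, Kcnip1 1370781_a_at -0.25 and Kcnip3 1387421_at -0.16. Leaving out single arrays, between 21 and 32 members had a slope past the threshold. Without the arrays high in hepatocyte transcripts 29 did, where 23.2% of all genes had one, and without both near-identical arrays 20 did, where 16% had one. Of the 4 Kcnj genes with a positive slope, 1 passed without the near-identical arrays.

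Read array by array, the 10 cortex arrays with a gap over 3 were set against the other 14. Hcn2 ran from 6.61 through a median of 6.86 to 6.98 in the 10 arrays, against 7.04, 7.52 and 7.82 in the 14. Cacnb3 ran from 7.81 through 8.07 to 8.37, against 8.58, 8.91 and 9.19. Cacng8 ran from 4.69 through 5.02 to 5.11, against 5.16, 5.56 and 6.19. Of the 10 arrays, 7 were later arrays of the 18 mg/kg arm and 3 were 0 h arrays. These 3 genes were lower in every array with the wider gap, and Kcna1, Kcnb2 and Kcnj11 were higher in every such array. Each count of 3 is 2.94% of the members, against 2.53% lower and 2.34% higher over all genes.

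Individual groups show the pattern for Kcna1. At 0 h it had 8.59, 8.70 and 9.95 in the 18 mg/kg arm and 9.99, 9.83 and 8.74 in the 3 mg/kg arm. The arrays at 9.83 and above are the 3 with gaps over 3 at that time, 1 in the 18 mg/kg arm and 2 in the 3 mg/kg arm. At 48 h it had 10.39, 7.96 and 10.47 after 18 mg/kg, against 8.33, 8.59 and 8.54 after 3 mg/kg. The array at 7.96, the lowest of all cortex arrays, did not follow the slope. Its gap of 2.95 was wider than the 2.11, 2.19 and 2.73 after 3 mg/kg, and its hepatocyte mean was 10.4. Cacng3 was the mirror image at 0 h, with 8.86, 9.11 and 7.70 in the 18 mg/kg arm and 8.38, 7.38 and 9.20 in the 3 mg/kg arm.

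**Figure D3:**
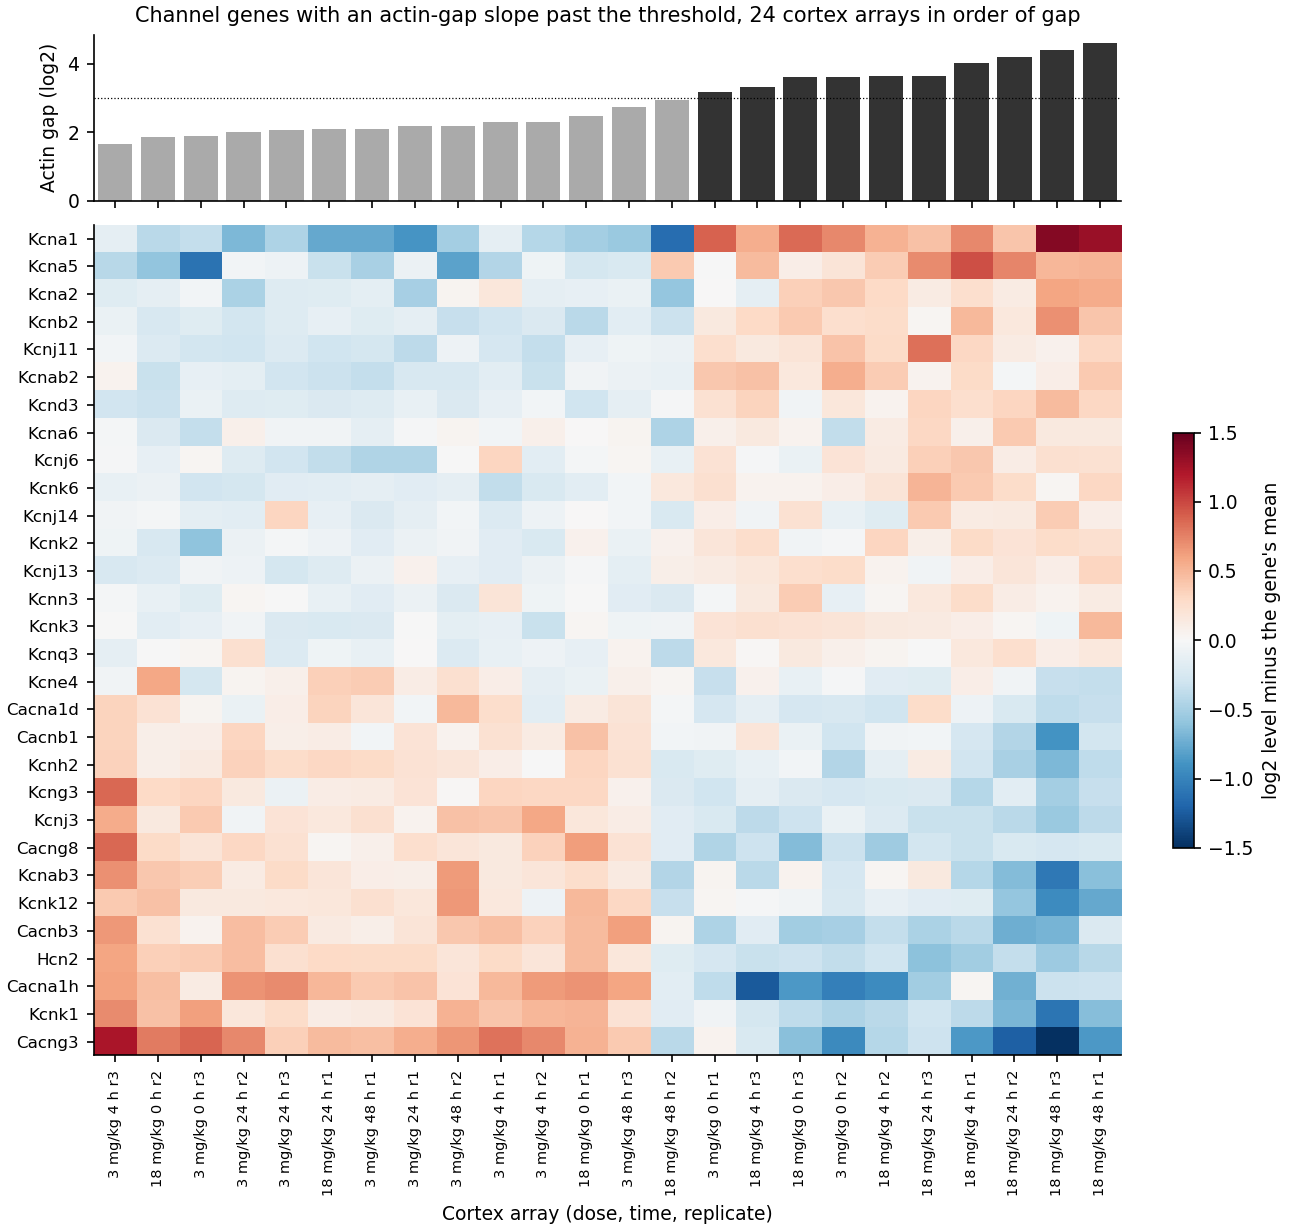
Log2 signal, relative to each gene's cortex mean, of the 30 members with a slope on the actin gap (rows) over the 24 cortex arrays (columns) ordered by gap, which the bars on top show. Members with negative slopes, Cacng3 and Hcn2 among them, are mostly low in the 10 arrays with gaps over 3, and members with positive slopes, Kcna1 among them, are mostly high there.

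Within a gene the slope depended on the probe set. Slopes of opposite sign were found among the probe sets of 30 of the 40 members with several (75%), against 54.5% of all such genes. In 4 members (10%, against 6.52%) slopes of both signs passed. Without both near-identical arrays the positive slopes of Kcnj11, Kcnk2 and Kcnk3 did not pass (limma adjusted p = 0.12, 0.0664 and 0.132). For Cacna1d, the L-type pore CaV1.3, 1369086_a_at had -0.21 and 1370637_at 0.21. For Kcnj11, 1391007_s_at had 0.26 and 1369782_a_at -0.23. For Kcnk2, 1370342_at had 0.16 and 1382723_at -0.24. For Kcnk3, the TASK1 leak channel, 1387441_at had 0.15 and 1375807_at -0.15. The direction of a member along the gap is thus a property of the probe set shown.

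**Figure D4:**
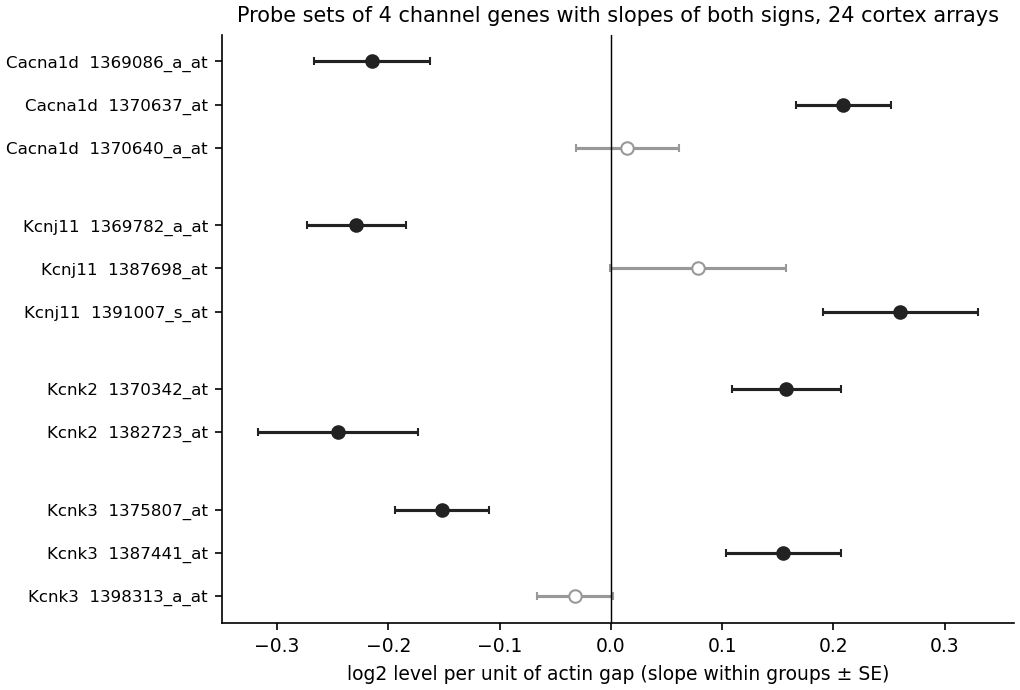
Slope of log2 signal on the actin gap within cortex groups, with SE, for each probe set of Cacna1d, Kcnj11, Kcnk2 and Kcnk3. Every gene has a probe set on either side of 0.

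Channel partners and regulators outside the gene families were described as well: 21 of 25 listed genes were measured, such as Dpp6, Dpp10, Lgi1 and Nalcn. None passed in any cortical time or dose contrast (limma, the backgrounds given above). Along the actin gap 2 were higher and 4 lower, where 12.8% and 12.7% of all genes were. Pex5l, the HCN-channel partner TRIP8b, had a slope of 1.28 (SE 0.18), and Dpp10, a Kv4 partner, of -0.17. Between the tissues 14 were higher and 3 lower in cortex, where 37.4% and 40.6% of all genes were.

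In liver, 19 members lay above 6.148, the median over all liver probe sets, where 9671 of all 14217 genes lay at or above it. Only Cacng2, at 7.97, was a member above the 75th percentile of 7.935. That Cacng2 probe set is not the one that was brightest in cortex, which averaged 4.92 in liver. The next were Kcnh3 at 7.37, Kcnq5 at 7.25, Kcnn1 at 7.02, Kcnk5 at 6.96, Kcnk2 at 6.95, Hcn2 at 6.88, Cacna1a at 6.47, Kcnip3 at 6.38, Kcnab2 at 6.32, Cacna1i at 6.28 and Kcnj11 at 6.27. With the brightest probe set standing for a gene, its other probe sets are lower by rule. In liver they were at 6.39 and 4.53 for Kcnq5 and 4.32 for Kcnk2. They lay below the median for Cacna1a (4.78 to 5.57), Kcnip3 (5.28), Kcnab2 (4.69 to 5.08), Cacna1i (5.60) and Kcnj11 (5.31 and 5.16). Of the 19, 14 also lay above the median in cortex. Kcnk5, Kcnj5, Kcnj15 and Cacna1i lay above the median of the tissue in liver only. So did Kcnk3, at 6.22 in liver against 6.18 for another probe set in cortex, where the cutoffs were 6.148 and 6.243. The liver probe set of Kcnk3 differed by 0.02 between the tissues at 0 h, which did not pass (limma adjusted p = 0.93).

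With all arrays weighted equally, only the contrast of 48 h with 0 h after 3 mg/kg called members in liver. Kcnv2 had 5.60, 5.84 and 5.46 at 48 h, against 6.36, 7.20 and 6.08 at 0 h (log2 -0.91, SE 0.28, limma adjusted p = 0.0444). Kcnn1 had 6.48, 6.95 and 6.69 at 48 h, against 7.10, 8.25 and 7.38 at 0 h (log2 -0.87, SE 0.27, limma adjusted p = 0.0472). The groups did not overlap for either gene, and the highest 0 h value of each came from the compressed array, replicate 2. Without overlap, 28 members in all lay lower at 48 h and 2 higher. All genes called made up 10.4%, and 1.86% were lower. Kcnj5 had a log2 difference of -0.97 (limma adjusted p = 0.0511).

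Of the 102 members, 90 were below 0, with a median of -0.32 against 0.05 over all genes. The 83 members below the median liver level had a median of -0.33, and so did all 4546 genes below it. The 19 members above that level had a median of -0.14, against 0.37 for all genes there. Only 1 of the 19 lay above the 75th percentile of 7.935, so these sets are not matched for level. Without both compressed arrays 74 of the 102 members were below 0 and their median was -0.13. Kcnv2 then kept a limma adjusted p of 0.0493 and Kcnn1 had 0.0946, where 5% of all genes were called. With array weights, which downweight outlying arrays, 36 members passed in this contrast, where 44.2% of all genes were called. Leaving out single arrays gave between 0 and 14 members, the 14 without 3 mg/kg 0 h replicate 3, where 28% of all genes were called. At 4 h after 18 mg/kg, 92 of 102 members were above 0 with a median of 0.26, and without the compressed arrays 49 were. With all arrays, 76 of the 83 members below the median level were above 0 there, with a median of 0.27. Of all 4546 genes below that level 3641 were above 0, with a median of 0.22. Array weights also gave calls in other liver contrasts, such as 23 members at 4 h and 27 at 24 h after 3 mg/kg, where 34.6% and 37.2% of all genes were called. With equal weights no member passed in the other liver contrasts (limma), where all genes called made up 0.0492% and 0% at 4 and 24 h after 3 mg/kg, 0.0352%, 0% and 0.183% at 4, 24 and 48 h after 18 mg/kg, and 0.0774% with the times pooled. At an unadjusted p under 0.05 there were 11 and 16 members (background 15.6% and 22.4%), 13, 0 and 1 members (13.3%, 2.45% and 1.67%), and 9 members (16.3%) in the same order of contrasts. For 18 minus 3 mg/kg in liver, 0%, 0%, 0.134% and 0.0492% of all genes were called at 0, 4, 24 and 48 h, and 11, 9, 1 and 0 members had an unadjusted p under 0.05 (23.3%, 12.4%, 3.14% and 2.26%). The dose-by-time test in liver had 4 such members (9.49%), with 0.00703% of all genes called. Kcnk5 in liver ranged from 6.43 to 7.69 over the 12 arrays after 18 mg/kg and from 6.11 to 7.57 over the 12 after 3 mg/kg, and its time groups overlapped.

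**Figure D5:**
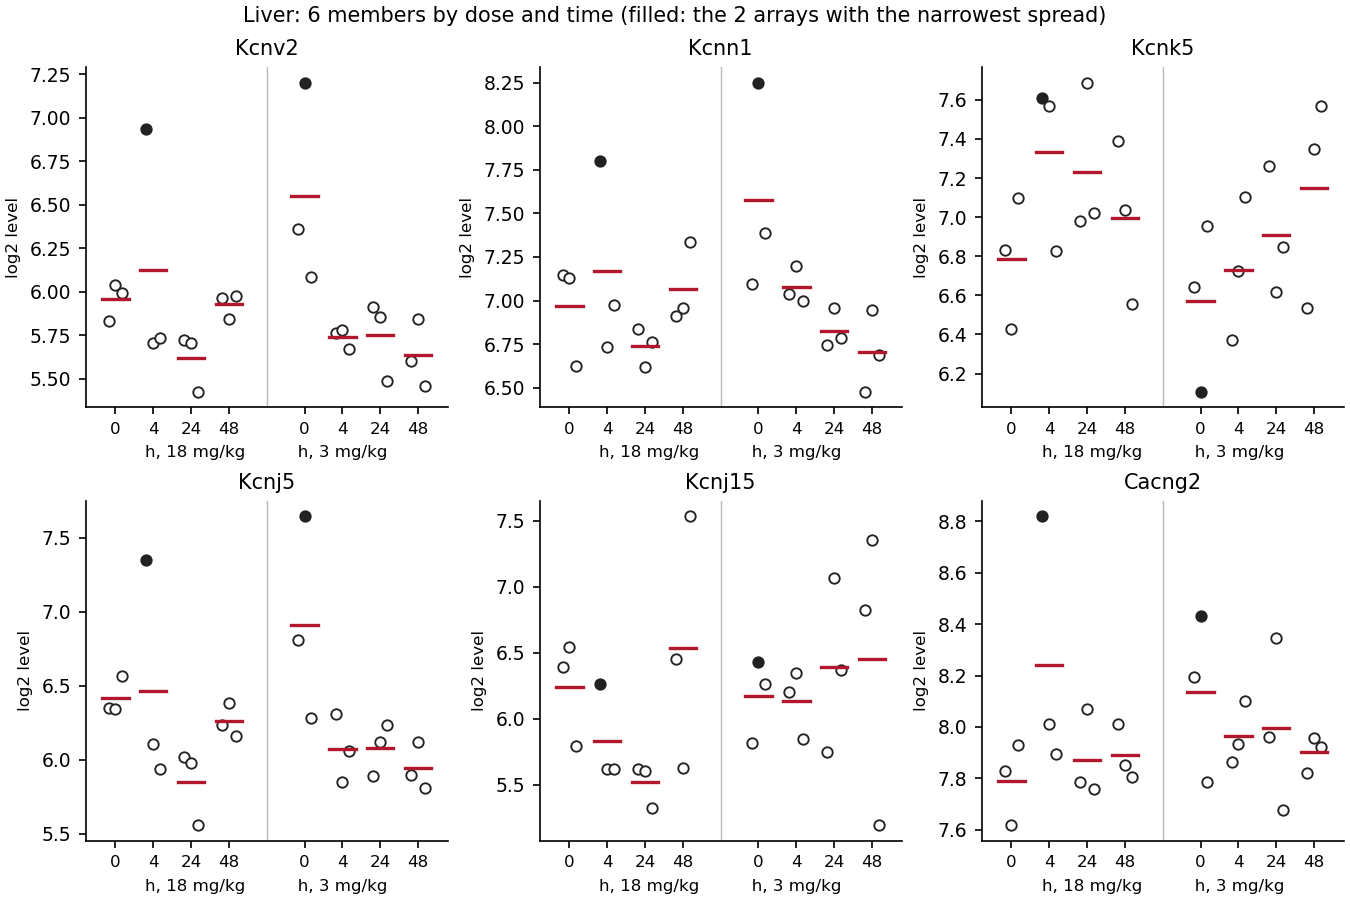
Log2 signal on each liver array of Kcnv2, Kcnn1, Kcnk5, Kcnj5, Kcnj15 and Cacng2, by time, with 18 mg/kg left of 3 mg/kg. Red lines are group means, filled points are the 2 compressed arrays, and the 0 h array of the 3 mg/kg arm among them carries the highest Kcnv2 and Kcnn1 values.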

How the data were processed

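Log2 signals of Affymetrix rat arrays were used as deposited. The authors made them with RMA and Partek, per the submitters' processing notes, with versions not given in the sources used here. The means of the deposited arrays were alike, near 6.74, so a change shared by most transcripts is reduced. Their spreads were not alike, with an SD of log2 signals from 1.389 to 2.168. Of 31099 probe sets, 57 controls were left out and 31042 tested, with no filter on dim signals. Symbols came from the platform annotation (20826 probe sets with 1 symbol, 436 with several, 9780 with none). Per tissue, limma 3.58.1 (R 4.3.3) was fitted to 24 arrays with a mean per group, and p-values were adjusted over all probe sets (Benjamini-Hochberg, threshold 0.05). The tissue contrast used all 48 arrays. All tests were two-sided, and scripts were tested on simulated data. Members, partners and tests were chosen with earlier results of these data known. Genes named are those past the threshold, the smallest p-values of each test, each family's brightest and dimmest member in cortex, and the brightest in liver; others were chosen after their values were seen. Alternatives covered normalisation, filters, covariates and arrays left out. The number of arrays limits the precision.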

Additional observations from a re-analysis of the deposited data

How the results depend on the processing

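The counts of members past the threshold kept within 1.5 times of the reported count except as follows, and no result reversed. Replicate numbers did not pair the arrays: same-numbered cortex arrays had a mean correlation of deviations of -0.0407 (from -0.707 to 0.484), and 3 of 24 correlated best with their own number. In liver the mean was 0.0236 (from -0.515 to 0.61), with 10 of 24. With the replicate number as a block, the 18 minus 3 mg/kg counts in cortex at 4 and 48 h were 0 and 0. For cortex 18 mg/kg at 48 h against 0 h (reported 0), quantile normalisation, median subtraction, a filter to brighter probe sets and 1 probe set per gene each gave 2. For 18 minus 3 mg/kg in cortex (reported 3 at 4 h and 3 at 48 h), the brighter probe sets gave 1 and 7, 1 probe set per gene gave 1 and 8, and median subtraction gave 5 at 48 h. The gap covariate gave 0 and 0, and leaving out the arrays high in hepatocyte transcripts gave 0 at 4 h. At 48 h that leaves only replicate 1 after 18 mg/kg, so no count is given. Without both near-identical arrays, chosen after seeing the data, the counts were 9 at 4 h and 5 at 24 h (reported 0), and 1 for dose by time (reported 0). The tissue count was 40 (reported 74) among brighter probe sets, with fewer genes tested. For liver 3 mg/kg at 48 h (reported 2), quantile normalisation gave 0, median subtraction 1, and leaving out the compressed arrays 1.

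Array weights, which downweight outlying arrays, raised the liver counts to 23, 27 and 36 at 4, 24 and 48 h after 3 mg/kg, 3 at 4 h after 18 mg/kg, 20 for the later times pooled, 27 for 18 minus 3 mg/kg at 0 h, 1 for the same at 4 h and 17 for dose by time. All genes called then made up 34.6%, 37.2%, 44.2%, 1.84%, 29.6%, 40.6%, 3.01% and 32.2% in that order. The cause was not tested for any of these. Leaving out single arrays gave 0 to 1 for cortex 3 mg/kg at 24 h, 0 to 10 for cortex 18 mg/kg at 48 h, 0 to 0 at 4 h, 0 to 6 at 24 h and 0 to 17 at 48 h for 18 minus 3 mg/kg in cortex, 0 to 3 for dose by time in cortex, 21 to 32 for the gap slope and 74 to 79 for the tissues. In liver it gave 0 to 3, 0 to 8 and 0 to 14 at 4, 24 and 48 h after 3 mg/kg (14 without 3 mg/kg 0 h replicate 3), 0 to 2 for the later times pooled and 0 to 2 for 18 minus 3 mg/kg at 0 h.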
